A study of Mus musculus with 108 samples.

Results

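Open chromatin of embryonic stem (ES) cells and of hemangioblast (HB) cells was compared through the DNA fragments that had been cloned from each of them to build an enhancer reporter library. Only the plasmid lists were used to find stage differences, which are 4 of the 108 samples and 4 of the 10 plasmid lists: pDONR ES, pDONR HB, pSKB ES and pSKB HB. The genome was divided into 5451055 bins of 500 bp, each distinct fragment was given to the bin of its midpoint, and the number in a bin was scaled to the total of its list. 68023 bins held at least 20 fragments over both pDONR lists and at least 8 over both pSKB lists and were compared. A bin counted as different only where HB and ES differed by at least 2-fold, in the same direction, in both vectors.

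All cells derived from HM-1, a mouse ES cell line whose HPRT locus can receive a reporter. The HB population was the FLK1-expressing fraction that was pulled out with antibody-coated magnetic beads from embryoid bodies grown in serum. The same number of cells of each stage was cut with Tn5 transposase in 5 aliquots that were then combined, and the fragments were cloned by Gateway recombination into the donor vector pDONR and moved from there into pSKB. In pSKB a fragment sits before an HSP68 minimal promoter and a Venus-YFP reporter. Each stage was thus 1 pool of DNA, and the pSKB list is a recloned sample of the pDONR list rather than a second measurement of the cells, so no replicate exists for ES or HB and no test was made between them. The intervals given on ratios are 95% intervals for counting error only.

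Tn5 inserts preferentially into DNA that nucleosomes leave exposed, so fragments accumulate at promoters and at enhancers bound by transcription factors. In pluripotent cells such sites are held by POU5F1, SOX2, NANOG, ESRRB and KLF proteins. On differentiation, cells pass through a stage resembling the primitive streak, where T, EOMES, MIXL1 and MESP1 direct mesoderm, and FLK1-positive mesoderm then gives rise to blood, endothelium and heart under factors such as ETV2, TAL1, LMO2, GATA2 and GATA4. FLK1, the VEGF receptor encoded by Kdr, was the marker used to purify the HB cells.

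The sequences of 10 regions with a large difference are given first, as examples of the DNA behind the counts. Each is the central 300 bp of a bin on the plus strand of GRCm38 (mm10), and capitals mark exact matches on either strand to 1 of 18 short motifs, which may overlap. The first 5 are bins with more HB fragments. Mesp1 and Lhx1 stand for mesoderm, Snai1 for the epithelial to mesenchymal transition, Kdr for the sorting marker and Zfpm1, which encodes the GATA partner FOG1, for blood.
Mesp1 (chr7:79797601-79797900): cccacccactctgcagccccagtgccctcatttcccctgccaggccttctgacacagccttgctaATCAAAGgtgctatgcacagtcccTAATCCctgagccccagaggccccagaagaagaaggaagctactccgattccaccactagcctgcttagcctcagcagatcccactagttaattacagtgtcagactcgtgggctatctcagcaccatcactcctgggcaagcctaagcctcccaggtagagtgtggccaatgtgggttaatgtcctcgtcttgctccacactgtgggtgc
Lhx1 (chr11:84605101-84605400): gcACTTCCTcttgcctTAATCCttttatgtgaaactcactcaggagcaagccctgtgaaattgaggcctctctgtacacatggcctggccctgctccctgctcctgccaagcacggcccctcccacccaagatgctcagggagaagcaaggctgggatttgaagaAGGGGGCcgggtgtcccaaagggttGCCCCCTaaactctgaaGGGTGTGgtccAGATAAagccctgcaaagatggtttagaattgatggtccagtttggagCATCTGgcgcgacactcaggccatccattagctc
Snai1 (chr2:167543101-167543400): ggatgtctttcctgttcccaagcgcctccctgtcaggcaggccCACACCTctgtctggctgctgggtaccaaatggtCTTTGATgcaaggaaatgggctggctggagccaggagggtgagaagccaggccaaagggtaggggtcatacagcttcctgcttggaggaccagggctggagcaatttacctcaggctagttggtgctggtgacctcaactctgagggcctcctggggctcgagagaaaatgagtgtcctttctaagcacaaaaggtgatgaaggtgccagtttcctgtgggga
Kdr (chr5:76008601-76008900): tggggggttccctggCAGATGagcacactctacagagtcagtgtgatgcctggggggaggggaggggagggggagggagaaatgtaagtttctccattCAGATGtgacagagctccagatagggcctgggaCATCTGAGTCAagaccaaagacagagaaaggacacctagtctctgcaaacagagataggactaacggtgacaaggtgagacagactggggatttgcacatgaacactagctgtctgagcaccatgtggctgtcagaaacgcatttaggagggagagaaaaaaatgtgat
Zfpm1 (chr8:122322601-122322900): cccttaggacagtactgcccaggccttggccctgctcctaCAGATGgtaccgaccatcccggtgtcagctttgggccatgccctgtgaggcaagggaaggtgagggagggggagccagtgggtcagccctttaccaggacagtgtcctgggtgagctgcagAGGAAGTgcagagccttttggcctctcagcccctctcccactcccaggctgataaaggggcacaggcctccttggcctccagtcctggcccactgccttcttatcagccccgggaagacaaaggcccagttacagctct

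The other five are bins with more ES fragments. Pou5f1, Esrrb and Klf4 encode pluripotency factors, and the bins near Rybp, which encodes a Polycomb-associated protein, and Etl4 were among the 10 strongest of the genome in this direction.
Rybp (chr6:100378101-100378400): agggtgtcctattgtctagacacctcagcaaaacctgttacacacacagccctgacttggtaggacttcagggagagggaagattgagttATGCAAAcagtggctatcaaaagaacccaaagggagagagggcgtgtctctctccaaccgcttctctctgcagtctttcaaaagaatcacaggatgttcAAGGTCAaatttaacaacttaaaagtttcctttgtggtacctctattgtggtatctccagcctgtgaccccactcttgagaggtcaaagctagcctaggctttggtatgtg
Esrrb (chr12:86501601-86501900): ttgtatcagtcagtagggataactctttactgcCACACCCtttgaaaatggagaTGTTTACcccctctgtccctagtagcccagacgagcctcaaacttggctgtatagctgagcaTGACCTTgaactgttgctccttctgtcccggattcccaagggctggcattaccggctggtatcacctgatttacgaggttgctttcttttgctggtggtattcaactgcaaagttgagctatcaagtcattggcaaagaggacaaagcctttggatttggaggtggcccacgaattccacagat
Pou5f1 (chr17:35503601-35503900): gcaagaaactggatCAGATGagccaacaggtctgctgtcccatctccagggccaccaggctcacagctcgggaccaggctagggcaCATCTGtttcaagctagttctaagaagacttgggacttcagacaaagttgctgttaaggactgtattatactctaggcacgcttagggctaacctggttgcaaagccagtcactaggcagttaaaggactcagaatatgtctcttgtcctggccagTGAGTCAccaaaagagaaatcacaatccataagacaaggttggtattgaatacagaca
Klf4 (chr4:55464101-55464400): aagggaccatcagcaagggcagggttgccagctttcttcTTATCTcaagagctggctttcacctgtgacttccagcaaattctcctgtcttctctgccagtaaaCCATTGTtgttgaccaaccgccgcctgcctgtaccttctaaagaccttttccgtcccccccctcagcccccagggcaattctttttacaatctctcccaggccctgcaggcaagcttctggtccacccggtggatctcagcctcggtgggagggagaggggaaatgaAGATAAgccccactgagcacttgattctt
Etl4 (chr2:20669101-20669400): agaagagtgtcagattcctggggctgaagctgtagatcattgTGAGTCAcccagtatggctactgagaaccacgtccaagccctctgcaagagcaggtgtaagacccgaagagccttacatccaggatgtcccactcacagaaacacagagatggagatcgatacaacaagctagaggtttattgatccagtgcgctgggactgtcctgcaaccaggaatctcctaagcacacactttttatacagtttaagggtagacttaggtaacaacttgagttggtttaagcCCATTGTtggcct

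The 18 motifs, with the percent of all tested bins that hold at least 1 match, were ATGCAAA for POU factors (6.02%), ACAATGG for SOX (4.81%), AAGGTCA for ESRRB and other nuclear receptors (7.79%), GGGTGTG for KLF (15.2%), AGATAA for GATA (14.1%), AGGTGTG for T-box (10.9%), CAGATG for the E-box of TAL1 (27.9%), AGGAAGT for ETS (11.9%) and GGAATGT for TEAD (6.49%). The others were TGACTCA for AP-1 (8.35%), TGTTTAC for FOX (4.35%), CCATAAA for CDX and HOX (3.23%), CTTTGAT for TCF and LEF (5.56%), TGTGGTT for RUNX (7.28%), AGGGGGC for the CTCF core (18.6%), GATTGGC for NFY (5.89%), GCGCATG for NRF1 (4.18%) and GGATTA for OTX (11.3%). A match says only that these letters are present. In the Kdr sequence, for instance, the last E-box overlaps an AP-1 match, and in the Rybp sequence a POU match and a nuclear receptor match lie in the same window.

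The lists were deep. After mitochondrial DNA and unplaced sequences were set aside, pDONR held 5607554 distinct ES fragments and 6200448 HB fragments, and pSKB held 1675982 and 1944435. Of the pSKB ES fragments, 81.1% were identical to a pDONR ES fragment and 1.86% to a pDONR HB fragment, and of the pSKB HB fragments, 82.7% were identical to a pDONR HB fragment and 1.54% to a pDONR ES fragment, so each recloned list followed its own stage. The stages differed in general properties too. Fragments of at most 150 bp made up 25.4% of the ES list and 16.3% of the HB list in pDONR, and 18.8% and 13.7% in pSKB. The share of fragments in tested bins was 40.2% in ES and 47.5% in HB for pDONR, and 43.8% and 50.9% for pSKB. Mitochondrial fragments were 0.885% and 0.358% in pDONR. The 95% Wilson intervals of the shares of short, tested-bin and mitochondrial fragments reached at most 0.0861 percentage points on either side. The part that these differences have in the results below was not tested, apart from the alternative settings given with them.

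Bins differed in both directions. HB was at least 2-fold higher in both vectors in 6448 bins (9.48% of those tested), and ES was higher in 6117 (8.99%). At 4-fold the counts were 2034 and 2068. In 20 bins the vectors passed 2-fold in opposite directions. A bin could reach the minimum through 1 stage alone, and 171 of the HB-higher bins had no ES fragment in either vector while 126 of the ES-higher bins had no HB fragment in either. Adjacent bins joined into 5641 HB-higher and 5585 ES-higher regions. The threshold cut through a continuum. The bin just inside it on the HB side, at Actb, had log2 ratios of HB over ES of 1.00 in pDONR and 1.12 in pSKB, and the bin just outside, at Mapk8, had the same rounded values. On the ES side the bin just inside lay near Ak3, with 48 ES and 26 HB fragments in pDONR and 18 and 8 in pSKB, and the bin just outside near Cd38, with 57 and 31 and then 20 and 4.

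Where a bin differed strongly in pDONR, pSKB nearly always leaned the same way. Of 9139 bins at least 2-fold higher in HB in pDONR, 97.5% were also above 0 in pSKB on the log2 scale, and of 8297 higher in ES, 97.2% were below 0. Over all tested bins, 57.9% were above 0 and 42.1% below 0 in pSKB. The log2 ratios of the vectors correlated with Pearson's r of 0.844 and Spearman's rho of 0.785 across the 68023 bins, which are not independent replicates and which share their source DNA.

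**Figure D1:**
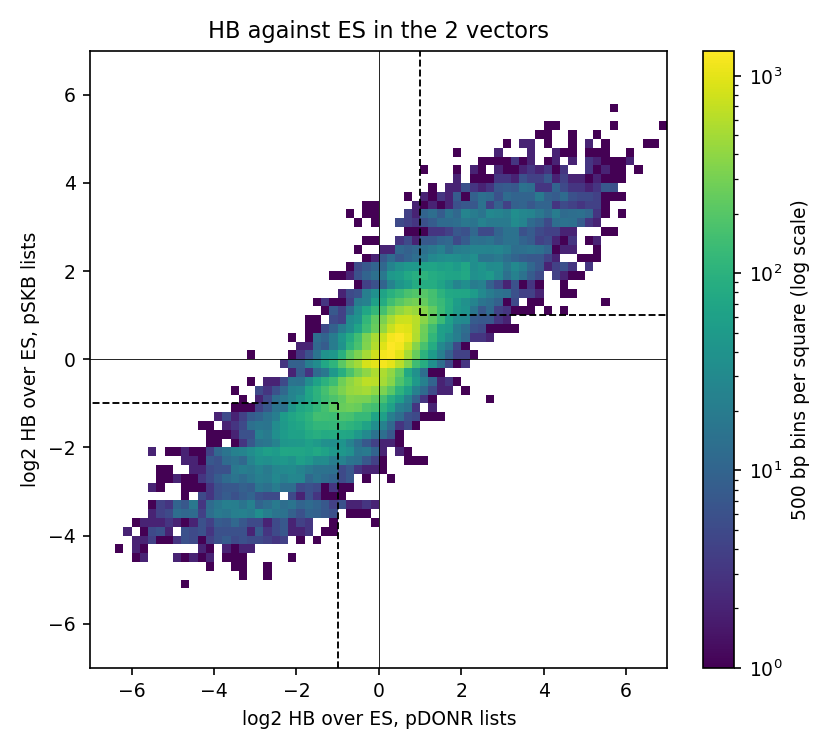
Log2 ratio of HB over ES fragments in each tested 500 bp bin, in the pDONR lists (x axis) and the pSKB lists (y axis), with the number of bins per square as colour on a log scale. The dashed corners hold the 6448 HB-higher bins (top right) and the 6117 ES-higher bins (bottom left), and the bins lie along the diagonal.

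The balance between the directions depended on the scaling, the bin width and the minimum. The median tested bin was higher in HB by 0.20 on the log2 scale in pDONR and by 0.16 in pSKB. HB-higher bins made up 51.3% of all calls with lists scaled to their totals, but 38.6% (4807 against 7641) after centring on the median bin and 37.5% (4692 against 7804) after scaling to the fragments in tested bins. Bins of 200 bp gave 6391 HB-higher and 3063 ES-higher bins, a minimum of 40 and 16 fragments gave 2580 and 1297, and a minimum of 1 fragment in each pair of lists gave 53243 and 277949. The counts of the gene groups below are therefore to be read against the background of each direction.

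Both kinds of differing bin lay away from promoters more often than the tested bins as a whole. Bins within 1.5 kb of a transcription start were 56.2% of all tested bins, 32.3% of HB-higher bins and 18.7% of ES-higher bins. Introns held 28.5% of HB-higher and 29.9% of ES-higher bins, against 14.7% of all, and intergenic DNA held 34.1% and 40.9%, against 22.4%. Exons held 5.09% and 10.5%, against 6.68%. The median distance to the nearest start was 7364 bp for HB-higher bins, 9757 bp for ES-higher bins and 821 bp for all. Median GC content was 54.0%, 51.4% and 56.0%, and the median number of CpG was 8, 8 and 17 per bin. Of the pDONR ES fragments in these sets, 19.8%, 33.4% and 22.9% were at most 150 bp long. Of the pDONR HB fragments, 16.9%, 19.1% and 13.4% were. Calls were less frequent among bins with more fragments. With a minimum of 40 and 16 fragments, 7.52% of tested bins were HB-higher and 3.78% ES-higher, against 9.48% and 8.99%. The part of fragment number in the places of the called bins was not tested.

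By the smaller of their ratios in the vectors, the 10 strongest HB-higher bins lay nearest to Sept8, Slit3, Hs3st3b1, Rftn1, Lhx1, Tbc1d22a, Mesp1, Mex3b, Bcas3 and Chic2. The starts of Tbc1d22a (623245 bp) and Chic2 (123571 bp) were more than 100 kb away. A nearest gene names a position and is not shown to be the target of the DNA. The Sept8 bin (chr11:53528501-53529000, intron) had 2 ES and 166 HB fragments in pDONR and 0 and 58 in pSKB, a pSKB difference of at least 16.7-fold against a floor of 3 fragments per list. Slit3 encodes a secreted guidance ligand, and an exonic bin 67565 bp downstream of its start had 1 and 109 fragments in pDONR and 0 and 43 in pSKB. The bin 15040 bp into Hs3st3b1, a heparan sulfate sulfotransferase gene, had 0 ES fragments in either vector against 132 HB fragments in pDONR and 40 in pSKB, which is at least 39.8-fold and 11.5-fold. In all 3 bins ES was at or near zero in both vectors and HB was high in both.

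The Mesp1 bin, whose sequence is given first above, lay 3962 bp upstream of the start of this mesoderm regulator. It held 2 ES and 107 HB fragments in pDONR (log2 ratio 5.05, interval 3.71 to 8.66) and 0 and 31 in pSKB (at least 8.91-fold). The Lhx1 bin, 79715 bp upstream of a LIM homeobox gene of early mesoderm, held 0 and 105 in pDONR and 0 and 32 in pSKB, at least 31.7-fold and 9.19-fold. Lhx1 was also among the genes with most HB-higher bins, 13 of 25 tested, with none higher in ES.

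On the ES side, the 10 strongest bins lay nearest to Rybp, Rdh10, Urm1, Etl4, Gpr107, Fbxo22, Ptdss2, Gdap1, Edn1 (at 111274 bp) and Eif2d, none of which is on the pluripotency list used below. The Rybp bin (sequence above), 90765 bp upstream of its start, had 101 ES and 3 HB fragments in pDONR (log2 ratio of HB over ES between −7.52 and −3.63) and 30 and 0 in pSKB, at least 11.6-fold. A bin 252 bp upstream of the start of Rdh10, a retinol dehydrogenase gene in retinoic acid synthesis, had 82 and 2 in pDONR and 21 and 0 in pSKB. The Etl4 bin had 54 and 0 in pDONR and 20 and 0 in pSKB, at least 19.9-fold and 7.73-fold, and 11 of 21 tested bins nearest to Etl4 were ES-higher.

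Called bins were also counted by nearest gene within 100 kb. Of 15744 genes with a tested bin, 3585 had an HB-higher bin (22.8%), 3729 an ES-higher bin (23.7%) and 1099 had both. The most HB-higher bins were found at Gse1 (31 of 104), Nfatc1 (17 of 23), Cxxc5 (17 of 44), Lhx1, Zfpm1 (13 of 44), Sept9 (13 of 64), Tenm4 (12 of 24), Grin2c (12 of 22), Gata6 (11 of 17) and Tcf20 (10 of 29). Nfatc1 encodes a calcium-regulated factor of endocardium, and GATA6 directs cardiac mesoderm and endoderm. The most ES-higher bins were at Tns3 (15 of 37), Nmnat2 (14 of 19), Cacna1a (14 of 39), Etl4, Myo10 (10 of 22), Sh3pxd2a (9 of 38), Dst (9 of 22), Cuedc1 (8 of 28), Smad7 (8 of 33) and Hs6st1 (8 of 16). Several of these loci carried calls in both directions. Sept9 had 8 ES-higher bins beside its 13 HB-higher ones, and Sh3pxd2a had 8 HB-higher beside its 9 ES-higher ones.

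Bins near mesoderm and primitive streak genes were HB-higher at more than the background share. Of 280 tested bins near 28 such genes, 96 were HB-higher (34.3%, Wilson interval 29.0% to 40.02%) and 11 ES-higher (3.93%), and 22 of the genes had at least 1 HB-higher bin. The intervals of this and the other gene lists treat bins as independent. Many bins lie near the same gene, so the intervals are too narrow for the gene group. The genes with most called bins were Lhx1, Eomes, with 7 HB-higher and 3 ES-higher of 20, and Snai1, with 8 and 1 of 18. Snai1 encodes a repressor of E-cadherin that drives cells out of an epithelium, and its strongest bin, 5055 bp downstream of the start, held 13 ES and 208 HB fragments in pDONR (log2 ratio 3.76, 3.05 to 4.79) and 4 and 77 in pSKB (3.77, 2.64 to 5.96). Eomes had bins of both kinds. Its strongest call was ES-higher, 72962 bp upstream, with 28 ES and 2 HB fragments in pDONR and 9 and 0 in pSKB, at least 3.48-fold.

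At promoters the same group had 8 of 27 tested windows called, all higher in HB. A promoter window was 500 bp on each side of a gene's start. Over 13774 tested windows, 391 were HB-higher (2.84%) and 260 ES-higher (1.89%), and the median window was higher in HB by 0.36 in pDONR and 0.32 in pSKB on the log2 scale. The 8 windows belonged to Mesp1, Mesp2, Mixl1, Evx1, Lhx1, Aplnr, Foxc1 and Cyp26a1. The Mixl1 window, at a homeobox gene of the primitive streak, held 68 ES and 226 HB fragments in pDONR and 24 and 73 in pSKB, log2 ratios of 1.57 and 1.36. The Lhx1 window held 54 and 210 in pDONR and 25 and 78 in pSKB. After centring on the median window, 5 of the 8 stayed called and Aplnr, Foxc1 and Cyp26a1 did not. The list's other most abundant windows, Snai1 (log2 0.79 and 0.57) and Wnt3 (0.91 and 0.84), were not called. Across all windows HB-higher calls were 60.1% of calls, but 20.9% (119 against 450) after centring on the median window and 72.7% (1177 against 441) when reads were counted instead of distinct fragments.

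Pluripotency genes leaned to ES. Of 217 tested bins near 29 genes, 52 were ES-higher (24.0%, interval 18.8% to 30.1%) and 26 HB-higher (12.0%, 8.31% to 17.0%), and 23 genes had an ES-higher bin. Pou5f1 had 6 ES-higher bins of 9 and none higher in HB. Its strongest, 2268 bp upstream, held 34 ES and 3 HB fragments in pDONR (log2 −3.25, −5.99 to −1.98) and 14 and 1 in pSKB. Klf4 had 5 ES-higher bins and 1 HB-higher of 15, and the strongest, 67520 bp downstream of its start, held 28 and 5 in pDONR and 8 and 1 in pSKB. Tbx3 had the most HB-higher bins of the list, 10 of 22, and none ES-higher, and Mycn (4 against 1), Lefty1 (2 against 0), Lefty2 (2 against 1), Sall4 (2 against 1) and Nr5a2 (1 against 0) also had more HB-higher than ES-higher bins. Tbx3 is active in naive ES cells and again in mesoderm and heart, and the strongest Tbx3 bin, 26419 bp upstream, had 2 and 24 fragments in pDONR and 1 and 11 in pSKB.

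Few promoter windows of pluripotency genes were called. The Pou5f1 window held 71 ES and 47 HB fragments in pDONR (log2 −0.73) and 19 and 17 in pSKB (−0.36), which was no call. The abundant windows of Klf2 (log2 −0.04 and −0.09), Tbx3 (0.72 and 0.65), Klf5 (0.14 and 0.48) and Utf1 (−0.77 and −0.54) were not called either. Of 21 tested windows, those of Zfp42, Fbxo15 and Tdh were ES-higher, and after centring on the median window those of Nanog and Dppa5a were as well. The Nanog window held 26 ES and 18 HB fragments in pDONR and 9 and 6 in pSKB, log2 ratios of −0.65 and −0.70 before centring. Zfp42, which encodes REX1, had 81 ES and 19 HB fragments in pDONR and 19 and 7 in pSKB, and Fbxo15 had 56 and 4 in pDONR and 15 and 1 in pSKB. A few further loci were looked at after their values were seen. The Esrrb bin shown above held 39 ES and 1 HB fragment in pDONR (log2 −4.43, −10.77 to −2.87) and 12 and 0 in pSKB, at least 4.64-fold. A bin 4739 bp upstream of Nanog held 140 and 51 in pDONR and 34 and 16 in pSKB, a log2 ratio of −1.58 (−2.09 to −1.13) and −1.25 (−2.26 to −0.41), so that HB fragments were fewer but not absent there.

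Cardiac genes also had mostly HB-higher calls. Of 161 tested bins, 41 were HB-higher (25.5%) and 4 ES-higher (2.48%), and the genes with most called bins were Gata6, Gata4 (8 of 16, none ES-higher) and Hand1 (5 HB-higher and 1 ES-higher of 23). A bin 4998 bp into Gata4, a zinc finger gene of heart and endoderm, held 2 ES and 80 HB fragments in pDONR (log2 4.64, 3.28 to 8.25) and 0 and 33 in pSKB, at least 9.48-fold. The Gata6 promoter window held 44 and 166 in pDONR and 12 and 56 in pSKB and was the only one called of 10 tested. The most abundant window, Tbx20, had log2 ratios of 0.68 and 0.38.

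The same direction prevailed near the regulators of hemangioblast and blood. Of 179 tested bins near 18 genes, 44 were HB-higher (24.6%, 18.9% to 31.4%) and 7 ES-higher (3.91%). Zfpm1 had 13 and 2 of 44, Meis1 had 3 and 2 of 19, and Kdr (of 6), Gata2 (of 16) and Ets1 (of 9) had 4 HB-higher bins each and none ES-higher. The Zfpm1 bin shown above held 6 ES and 120 HB fragments in pDONR (log2 3.98, 3.01 to 5.65) and 3 and 33 in pSKB (2.90, 1.57 to 5.59). The Kdr bin, 30292 bp upstream of the gene for the sorting marker, held 0 and 57 in pDONR and 0 and 14 in pSKB, at least 17.2-fold and 4.02-fold. Its promoter window changed less, with 55 and 103 in pDONR and 17 and 34 in pSKB (log2 0.75 and 0.75). Windows of 4 of 14 tested genes were called, all HB-higher: Etv2, Lyl1, Fli1 and Nfe2, of which Fli1 and Nfe2 were not called after centring on the median window. Etv2, an ETS factor required for blood and endothelium, held 8 and 42 in pDONR and 1 and 11 in pSKB.

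Genes of later blood and of endothelium had calls in both directions. Endothelial genes had 21 HB-higher (16.5%) and 13 ES-higher (10.2%) of 127 bins, which turned to 12 and 14 after centring on the median bin. Mature blood genes had 7 (9.46%) and 5 (6.76%) of 74, near the shares of all tested bins, which turned to 5 and 8 after centring, where the shares of all tested bins were 7.07% HB-higher and 11.2% ES-higher. Notch1 had 3 HB-higher and 6 ES-higher bins of 24, whereas Flt1 had 3 and 1 of 11 and Nrp1 4 and 0 of 9, both genes of VEGF receptors or co-receptors. Of mature blood genes Itgb3 had most calls, 1 HB-higher and 2 ES-higher of 10, and the windows of Itga2b, Nfe2 and Epor were HB-higher, that of Nfe2 not after centring. Of 12 endothelial windows that of Flt1 was HB-higher, and not after centring. Itga2b encodes CD41, a marker by which later stages were sorted, and its window held 4 ES and 58 HB fragments in pDONR (log2 3.43) and 2 and 19 in pSKB (2.56). Epor, the erythropoietin receptor gene, held 4 and 32 in pDONR and 1 and 10 in pSKB.

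Markers of other germ layers and ubiquitous genes were counted in the same way. Endoderm genes had 11 HB-higher (16.4%) and 2 ES-higher (2.99%) of 67 bins, and of the HB-higher bins 6 were nearest to Cxcr4 and 3 to Gsc. Neural genes had 13 and 4 of 138 bins. Their HB-higher share of 9.42% was near the background, but their ES-higher share of 2.90% (interval 1.13% to 7.22%) was below the background of 8.99%. A low ES-higher share was thus not particular to the mesoderm, cardiac and blood factor lists. Ubiquitous genes had 6 and 9 of 92 bins. No window of the endoderm, neural and ubiquitous lists was called. The median promoter window was higher in HB by 0.91 and 0.84 (pDONR and pSKB, log2) for mesoderm, 0.65 and 0.42 for cardiac, 0.75 and 0.79 for hemangioblast and blood factors, 0.43 and 0.47 for ubiquitous and 0.03 and 0.04 for neural genes, and lower by −0.46 and −0.09 for pluripotency genes. The part of other cells in these counts was not tested, and in a pool of cells more cells with an open site and a site more open per cell cannot be told apart.

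**Figure D2:**
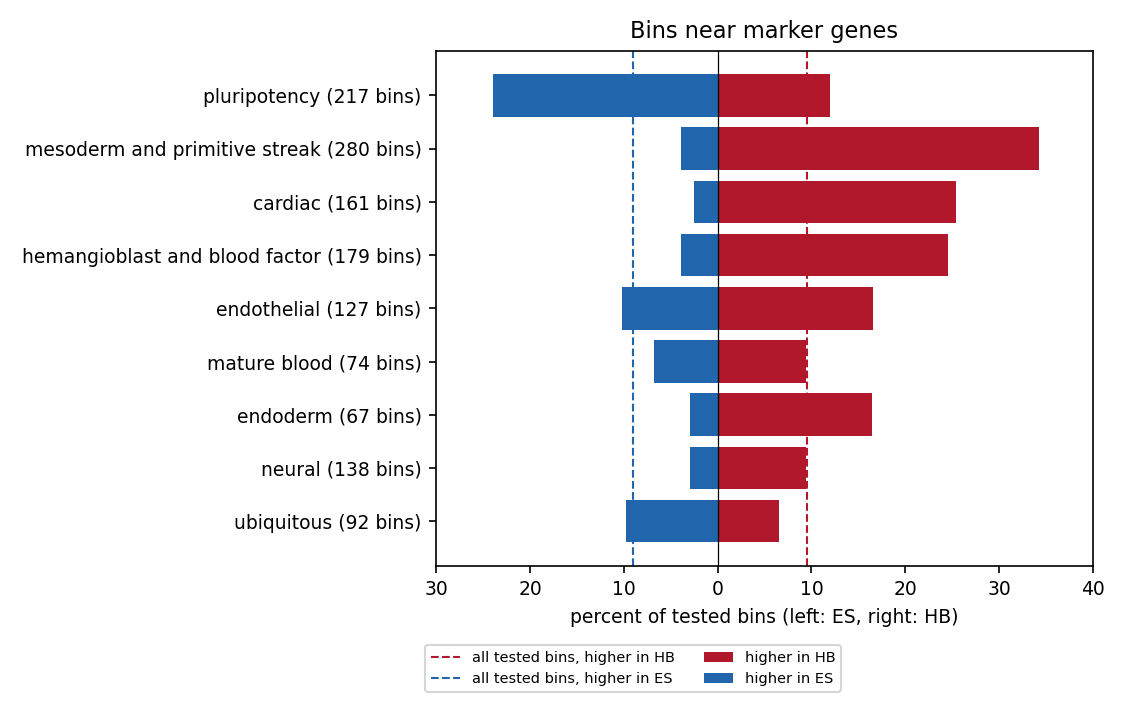
Percent of tested bins nearest to genes of 9 marker lists that were ES-higher (bars to the left) or HB-higher (bars to the right), with all tested bins as dashed lines at 8.99% and 9.48%. Mesoderm reaches 34.3% on the HB side and pluripotency 24.0% on the ES side. Mature blood genes lie near both lines. Neural genes lie near the line on the HB side, at 9.42%, but below it on the ES side, at 2.90%.

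Distal bins, more than 1.5 kb from any start, differed in the motifs they held. There were 4365 HB-higher, 4976 ES-higher and 29822 tested distal bins in all. Their median GC content was 52.6%, 51.0% and 53.0%, and the part of base composition in the motif shares was not tested. A GATA match was present in 34.9% of HB-higher, 16.5% of ES-higher and 19.1% of all distal bins. The E-box of TAL1 was present in 42.7%, 35.2% and 35.4%, TCF and LEF in 11.8%, 7.88% and 7.57%, and ETS in 18.4%, 14.9% and 14.5%. In the other direction POU matches were present in 6.44%, 11.1% and 7.81%, SOX in 5.93%, 9.87% and 6.46%, and ESRRB and other nuclear receptors in 9.55%, 12.6% and 9.76%. ES-higher bins also held AP-1 matches in 17.1%, against 9.99% of HB-higher and 11.9% of all, and TEAD in 12.9%, against 8.96% and 8.77%. T-box matches, the motif family of T and EOMES, were in 16.6% of ES-higher bins, against 13.6% of HB-higher and 13.4% of all. CTCF core matches were fewer in both, at 13.8% and 11.8% against 16.2%. Wilson intervals of these percentages reached at most 1.47 points on either side for HB-higher and 1.33 for ES-higher bins, for counting error only.

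**Figure D3:**
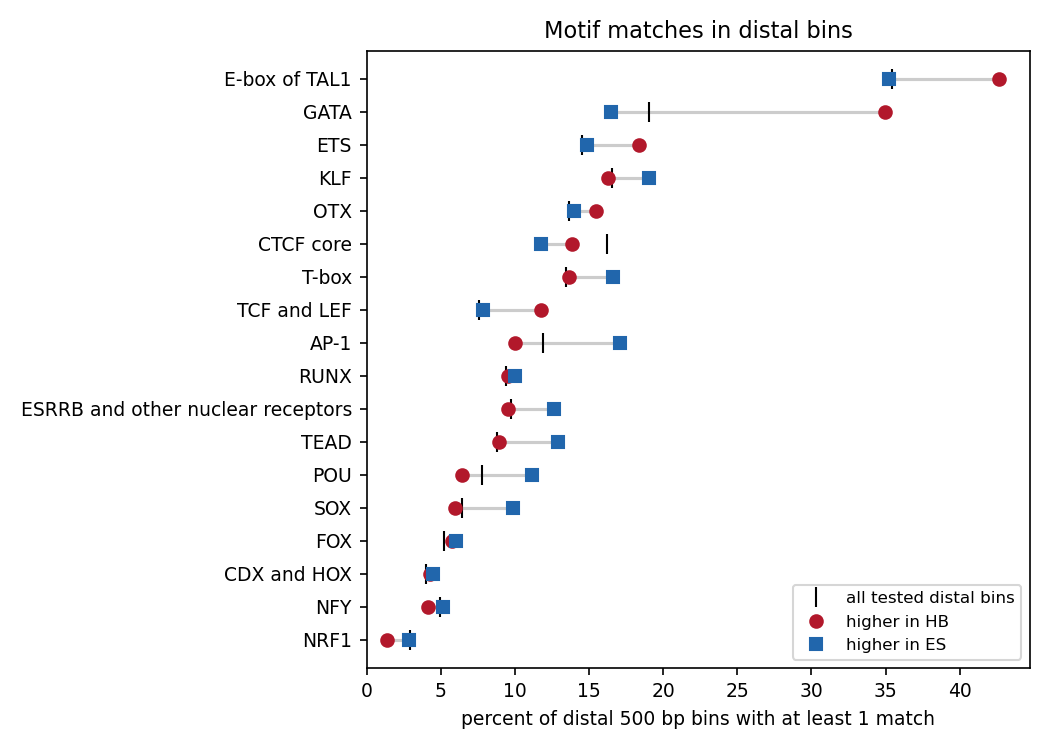
Percent of distal 500 bp bins with at least 1 exact match (x axis) for each of 18 motifs, in HB-higher bins (circles), ES-higher bins (squares) and all tested distal bins (ticks). GATA lies far to the right in HB-higher bins, at 34.9% against 19.1% of all, while POU, SOX, AP-1 and TEAD lie higher in ES-higher bins.

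The plasmid lists of later stages, which did not enter the calls, were set against the ES and HB levels of the called bins. HE1 and HE2 are hemogenic endothelium stages without and with CD41, and HP are hematopoietic progenitors, all sorted by KIT, TIE2 and CD41 from blast culture of the HB cells. The bins had been admitted on ES and HB fragments alone, and over all tested bins the pDONR median was 4.28 fragments per 1000000 at ES, 4.52 at HB and then 3.30, 3.16 and 3.38. A bin chosen for a high value at 1 stage also carries the counting error of that value, so lower values in lists outside the choice are partly set by it, in both directions of call. Of the 6117 ES-higher bins, 84.7% (HE1), 86.6% (HE2) and 86.8% (HP) lay nearer to the HB level than to the ES level in both vectors, and 7.91%, 5.69% and 4.77% lay nearer to ES. Their median in pDONR was 4.99 fragments per 1000000 at the ES stage, 1.13 at HB and 0.588 at HP. Of the 6448 HB-higher bins, 33.1% (HE1), 31.1% (HE2) and 29.7% (HP) lay nearer to the HB level, while 54.4%, 55.8% and 56.1% lay nearer to the ES level. Their median in pDONR was 1.25 fragments per 1000000 at the ES stage and 5.64 at HB, and at the later stages it was 1.82, 1.74 and 1.76. The difference between the shares of ES-higher and HB-higher bins was not tested.

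Within the HB-higher bins, the gene groups were counted in the same way. Near hemangioblast and blood factors 28 of 44 lay nearer to HB in HP and 13 nearer to ES. Near mesoderm genes the numbers were 11 and 73 of 96, and near cardiac genes 10 and 22 of 41. Among all 6448 HB-higher bins, 29.7% lay nearer to HB and 56.1% nearer to ES in HP, and the cardiac counts were near these shares. Pluripotency genes had 0 and 18 of 26, and endoderm genes 0 and 8 of 11. A return towards the ES level was thus not particular to the mesoderm list. Endothelial genes had 14 nearer to HB and 5 nearer to ES of 21 in HE1, and 8 and 10 in HP. In fragments per 1000000 of the pDONR lists, the Mesp1 bin was at 0.357 in ES and 17.3 at HB, and at 1.25, 1.26 and 1.62 in HE1, HE2 and HP. The Kdr bin was at 0 and 9.19, and then at 0.227, 0.158 and 0.294. The Zfpm1 bin was at 1.07 and 19.4, and then at 11.9, 7.26 and 8.67, below HB but above ES. Outside the naming rule, a bin 64236 bp upstream of Lmo2, a LIM-only cofactor of TAL1, was at 0.178 and 9.999, and then at 2.62, 4.42 and 10.1, and the bin at the start of Itga2b was at 0.178 and 5.97, and then at 27.3, 41.03 and 49.2.

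**Figure D4:**
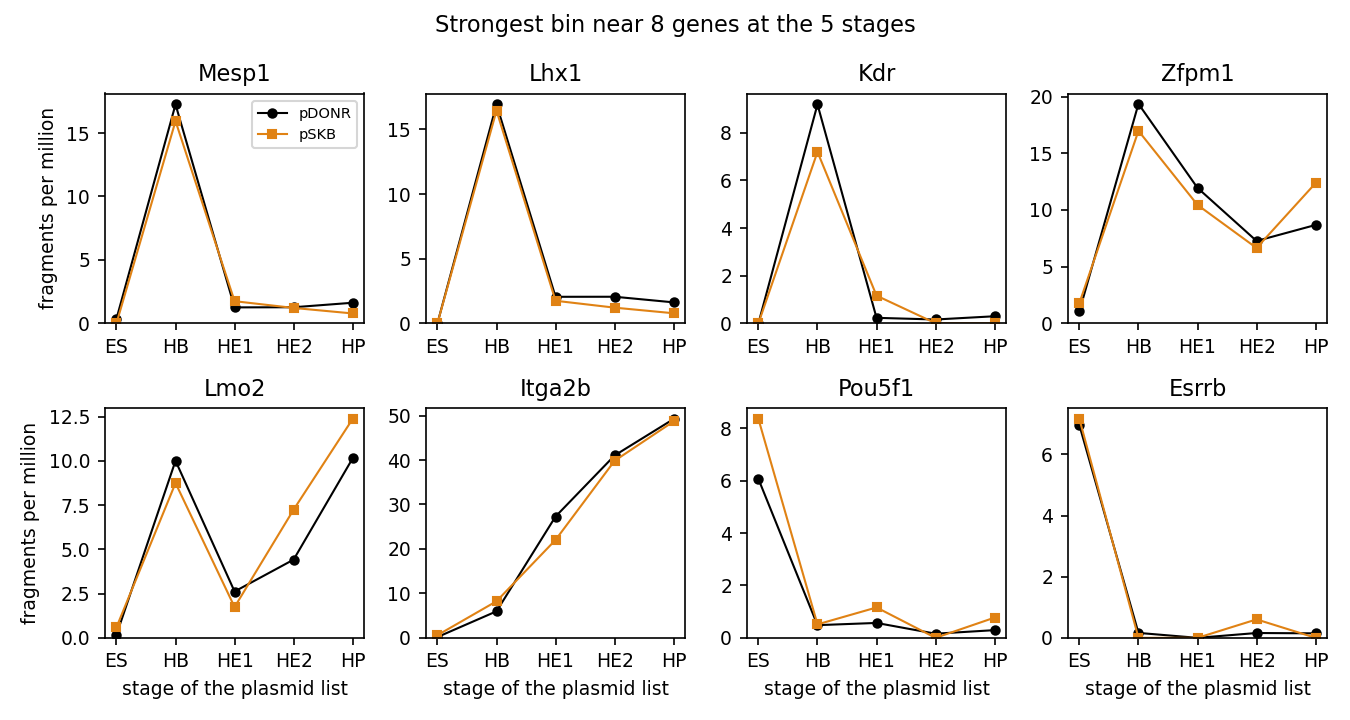
Distinct fragments per 1000000 (y axis, own scale per panel) of the plasmid lists at the 5 stages (x axis) in the bin with the largest difference near each of 8 genes, in pDONR (circles) and pSKB (squares). Mesp1, Lhx1 and Kdr peak at HB and fall back, Zfpm1 stays above ES, Lmo2 is high at HB and again at HP, Itga2b goes on upward, and Pou5f1 and Esrrb are high in ES only among these stages.

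Motif matches were counted by the level in HP as well. Of 854 distal HB-higher bins nearer to the HB level in HP, 43.0% held a GATA match, 26.3% an ETS match and 12.4% a RUNX match. Of 2963 nearer to the ES level, these were 32.8%, 15.3% and 8.77%, and matches for TCF and LEF (13.6% against 7.61%) and OTX (17.0% against 11.5%) were more frequent there. Among all HB-higher bins, promoters were 55.4% of the 1916 nearer to HB in HP and 18.1% of the 3618 nearer to ES.

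Chromosome 8 behaved differently from the rest. Outside tested bins its share of fragments in HB was 0.897 times that in ES for pDONR and 0.896 times for pSKB, while the other autosomes and X lay between 0.9503 and 1.054. It also had the most ES-higher bins among the autosomes and X by share, 13.1%, with 7.43% HB-higher, and a median log2 ratio of −0.03 in pDONR and −0.06 in pSKB. On X 3.40% of bins were ES-higher, and on chromosome 18 12.5% were HB-higher. Without chromosome 8, a setting chosen after these values were seen, 6135 HB-higher and 5565 ES-higher bins remained. Of the genes named, Zfpm1, Gse1, Nrp1 and Lyl1, with HB-higher calls, and Cacna1a, Zfp42 and Klf2 lie on chromosome 8. The copy number of the chromosome in the cultures was not tested.

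**Figure D5:**
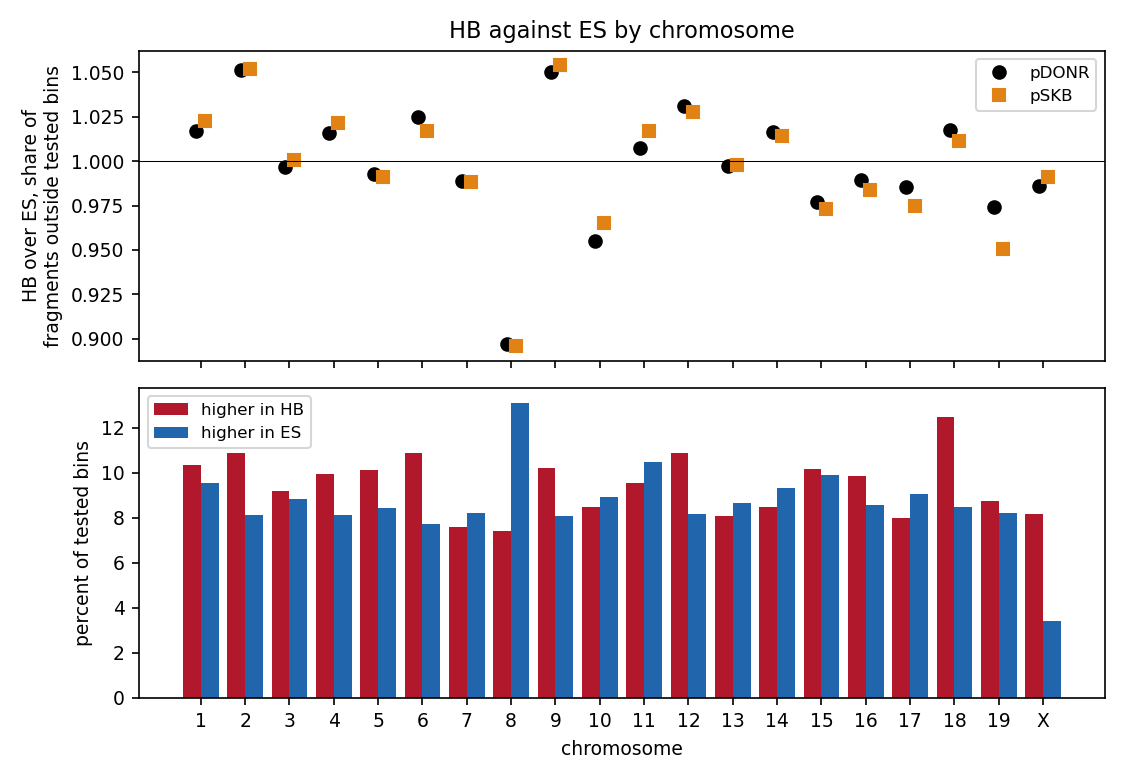
Top, the share of fragments outside tested bins on each chromosome in HB divided by that in ES, for pDONR (circles) and pSKB (squares). Bottom, percent of the tested bins of each chromosome that were HB-higher or ES-higher. Chromosome 8 lies lowest in the top panel, at 0.897 and 0.896, and has 13.1% ES-higher bins.

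The fragments recovered from reporter cells were a further set of libraries with 5 replicates per stage. They are not independent of the called bins, because of a filter on ATAC-seq peaks that is described below. Cells carrying the pSKB library were sorted at each stage into a Negative gate and gates of rising YFP. The percent of their fragments that lay in the called bins was compared between ES and HB by exact two-sided permutation tests over 252 splits, whose smallest possible p is 0.00794, adjusted by Benjamini-Hochberg over 4 tests. In HB-higher bins lay 2.89% ± 0.210 (SD, n = 5) of YFP-positive fragments of ES cells and 5.04% ± 0.296 (n = 5) of HB cells. The lowest and highest were 2.57% and 3.12% in ES and 4.68% and 5.43% in HB, so the groups did not overlap (exact permutation p = 0.00794, adjusted p = 0.0106). With the replicate number as a block, the exact sign-flip permutation p was 0.0625 here and in ES-higher bins. That is the smallest that 5 pairs allow, so neither YFP-positive call could hold with it, and the block decides nothing about them. Over tested bins, same-numbered YFP-positive sets correlated, but only 2 of 5 numbers correlated best with their own. The YFP-positive shares of same-numbered sets deviated together, with Pearson's r of 0.912 in HB-higher bins and 0.660 in ES-higher bins over 5 pairs. The permutation over splits ignores any such pairing. Negative fragments showed the same direction in HB-higher bins, with 3.06% ± 0.108 in ES and 5.59% ± 0.304 in HB (n = 5 each, exact permutation p = 0.00794, adjusted p = 0.0106).

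In ES-higher bins the order was the opposite. They held 2.73% ± 0.745 of YFP-positive fragments in ES and 1.33% ± 0.465 in HB (n = 5 each, exact permutation p = 0.0238, adjusted p = 0.0238), and here the groups overlapped, with 2.02% to 3.52% against 0.886% to 2.09%. This call was lost on leaving out replicate 1, 2, 4 or 5 (adjusted p up to 0.0857). Negative fragments gave 2.23% ± 0.384 and 0.973% ± 0.400 (exact permutation p = 0.00794, adjusted p = 0.0106). The sets differed widely in size, and each counted equally. For HB Negative, ES-higher bins held 404 of 46856 fragments in replicate 1 but 9 of 1734 in replicate 4. With distal fragments only, HB minus ES for YFP-positive cells was 5.69 percentage points in HB-higher bins and −5.59 in ES-higher bins. The adjusted p was 0.00794 for both (exact permutation, n = 5 per stage). Promoter fragments then leave the total as well, so these sizes are not on the scale of the 2.14 and −1.40 for all fragments.

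These shares are no independent account of open chromatin. The sorted lists had been limited by the authors to fragments in ATAC-seq peaks, and one part of the same transposed DNA went into the ATAC-seq libraries, so the filter and the called bins cannot be told apart. It is not stated in the sources whether this filter used peaks from 1 stage at a time or from all stages together, which decides how far it could produce the differences in share. Between 91.8% and 93.8% of sorted ES and HB fragments lay in tested bins. Nor did the sorted fragments mainly come from the plasmids of their own stage. Of 371178 sorted ES fragments, 11.3% were identical to a pDONR ES fragment, 9.95% to a pDONR HB fragment, 34.2% each to pDONR HE1 and HE2 fragments and 77.3% to any of the 5 lists. Of 417740 sorted HB fragments, 13.2% matched pDONR ES and 9.22% pDONR HB. Where nothing in the labels places the replicates in separate cultures, the p-values measure only the spread between these sets.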

How the data were processed

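Distinct fragments from plasmid libraries of HM-1 derived ES and HB cells (pDONR and pSKB) were compared, with the HE1, HE2 and HP plasmid lists and the sorted ES and HB lists as further readouts. According to the methods and the submitters' processing notes, the authors trimmed reads with Trim Galore, aligned them to mm10 with Bowtie2, kept uniquely mapped pairs of high quality with SAMtools, and wrote each pair as 1 interval with bedtools. HOMER is also named in the notes. The plasmid lists were deposited with a whole-number count of reads per fragment, without normalization. PCR before sequencing can inflate read counts, so each fragment was counted once here, and reads were an alternative. For sorted cells the authors deposited coordinates without counts, after filters against fragments of cells without a reporter, against all plasmid fragments and against ATAC-seq peaks. Control lists of HM-1 cells were not used here.

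Fragments longer than 600 bp were absent. Midpoints on chromosomes 1 to 19, X and Y were placed in 500 bp bins, 1 fragment was added in proportion to the list total, and log2 ratios of HB over ES were taken per vector. The minimum was 20 fragments over both pDONR lists and 8 over both pSKB lists. Genes and starts are those of the GENCODE annotation of GRCm38, the same build as mm10, and each bin was named by the protein-coding gene with the nearest start, counts per gene and per list being limited to bins within 100 kb. Promoter bins lay within 1.5 kb of a start. A ratio against 0 used a floor of 3 fragments. Named were the 10 strongest regions and 10 genes with most called bins per direction and, per marker list, the 3 genes with most called bins and up to 4 promoter windows with most fragments; other genes are described as chosen after their values were seen or belong to the count they stand beside. The regions, gene lists and motifs were chosen with earlier results of these data known. Replicate numbers of the sorted sets come from the sample labels, which do not say what they share. Deviations of same-numbered ES and HB sets from their stage means, over tested bins, correlated by 0.125 to 0.361 for YFP-positive sets, where all 5 pairs passed 0.1 and the numbers were taken to pair the samples, and by 0.0437 to 0.253 for Negative sets, where they were not. Scripts used Python 3.11.15, NumPy 2.4.6, pandas 2.3.3, SciPy 1.17.1 and Matplotlib 3.10.9, and were tested on simulated data. Alternatives were other bin widths, minimums, added counts, scalings, thresholds and vectors, short fragments, reads, single replicates left out and a replicate block.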

Additional observations from a re-analysis of the deposited data

Results flagged for a closer look

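Among the sorted libraries of all 5 stages, 20 groups of 5 replicates were checked for a value far from the others, and 3 had one, where chance flags about 1 in 20 groups. All were the highest value of their group, all concerned HB-higher bins and all were replicate 3. The share of Negative HE1 fragments in these bins was 5.67% in replicate 3, where the median was 4.58% and the lowest 4.44%. For Negative HE2 fragments it was 6.53%, with a median of 4.32% and a lowest value of 3.69%. For YFP-positive HP fragments it was 5.84%, with a median of 3.99% and a lowest value of 3.76%. The flagged HE2 set held 47 of 720 fragments in these bins and the flagged HP set 141 of 2413, and each was the smallest of its group. The flagged HE1 set held 388 of 6844. The check counts all sets equally, whatever their size, so the part of counting error in these values was not tested. These groups enter no comparison of ES with HB.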

How the results depend on the processing

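Counts of bins are given in the order HB-higher and then ES-higher. They were 2580 and 1297 with a minimum of 40 and 16 fragments (34295 bins), 53243 and 277949 with 1 fragment in each pair of lists as the minimum (1131215 bins), 367 and 349 with fragments of at most 150 bp (7226 bins), 2034 and 2068 at 4-fold, 33453 and 21175 with any size in the same direction, and 11156 and 9236 with pSKB alone. Bins of 200 bp gave 6391 and 3063, and counting reads gave 10046 HB-higher bins, of which 4883 were also called from distinct fragments. Promoter windows gave 119 and 450 when centred, 1177 and 441 with reads, and 169 ES-higher with 4 fragments added. Other settings of the counts stayed within 1.5 times.

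For sorted shares, the differences of HB minus ES on leaving out each replicate ranged from 2.10 to 2.19 percentage points (YFP-positive) and 2.43 to 2.62 (Negative) in HB-higher bins, and from −1.56 to −1.21 and −1.44 to −1.11 in ES-higher bins. With bins called from reads the YFP-positive difference in ES-higher bins was −0.995 (exact permutation, adjusted p = 0.0952). With the replicate number as a block, the differences stayed at 2.14, −1.40, 2.53 and −1.26 and all 4 exact sign-flip p were 0.0625, the smallest that 5 pairs allow, so this block cannot pass the threshold. HB was higher in 5 of 5 pairs in HB-higher bins and in 0 of 5 in ES-higher bins. Same-numbered Negative sets did not all pass a correlation of 0.1, so for them the numbers were not taken to pair the samples. In both gates only 2 of 5 numbers correlated best with their own, so the pairing of the YFP-positive sets is uncertain too. One pool of DNA per stage limits the calls, and bins with few fragments have wide intervals.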
